A study of Caenorhabditis elegans with 24 samples.

Results

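Antisense small RNAs were followed against the neuronal genes trp-4, dyf-3, rimb-1, unc-10, ckk-1, jip-1, ida-1 and egl-21 of the nematode Caenorhabditis elegans. These 8 genes are 8 of the 46726 features in the deposited table. They had been picked out because their small RNAs were low in animals lacking the germ granule proteins MEG-3 and MEG-4 and came back at different generations after an outcross. Their values in the mutants and in the generations are therefore given as a description, without a test. All 8 passed the filter on low values, at least 10 normalized counts in at least 2 of 24 libraries, as did 8869 features in all, but ida-1 reached 10 in only 4 libraries, those of wild type and of the generation F25.

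In C. elegans, RNA-dependent RNA polymerases copy target messenger RNAs into short secondary siRNAs that are antisense to the gene and are loaded onto Argonaute proteins. Germline siRNAs of this kind can be inherited through many generations, and germ granules, to which MEG-3 and MEG-4 contribute in the embryo, are sites where small RNAs and messenger RNAs are organized. The 8 genes encode proteins best known from neurons: a channel of mechanosensory neurons, a protein that builds sensory cilia, scaffolds of the presynaptic active zone, kinase signalling proteins, and components of the dense core vesicles that carry neuropeptides. The libraries measure small RNAs against these genes, not their messenger RNAs or proteins.

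Small RNAs came from whole young adults in synchronous populations kept at 20 °C on E. coli OP50, in 12 groups of 2 libraries. Beside wild-type controls there were double mutants of meg-3 and meg-4 (genotype meg-3 meg-4, here meg-3/4) and triple mutants that lack in addition the nuclear Argonaute HRDE-1, a carrier of inherited germline siRNAs (here hrde-1; meg-3/4). The other 9 groups were animals of wild-type genotype that descended from meg-3/4 after outcrossing, sampled in every generation from F3 to F7 and again at F10, at F15, at F20 and at F25. Each mutant genotype was represented by 1 strain, while the extent of its deletions, the scheme of the outcross and the number of separate lineages behind the descendants were not stated in the labels. The libraries of a group are labelled as biological replicates, with nothing on separate cultures, so a p-value here reflects only the spread between these samples, which may be technical. Because whole animals were sequenced, fewer cells carrying a small RNA and less of it per cell cannot be told apart.

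Recovered reads ranged from 392785 to 3420345 per library. In 22 libraries 1 read was worth 0.51 to 1.86 normalized counts, while in the shallow libraries F4 replicate 2 and F10 replicate 1 it was worth 4.99 and 5.47. As a check of the labels, small RNAs against meg-3 were at 42.8 and 64.2 normalized counts in wild type, 7.74 and 7.86 in the double mutant, 14.4 and 4.73 in the triple mutant and 46.5 or more in every descendant library. Those against meg-4 were at 55.0 and 74.2 in wild type, at most 12.2 in the 4 mutant libraries and 71.1 or more in the descendants. Those against hrde-1 were at 629 and 599.9 in the triple mutant and at 1115 or more in the other 22 libraries.

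The genes lie on 5 chromosomes of the WBcel235 assembly. The gene trp-4 (WBGene00006616) spans chromosome I 13899085 to 13914008 on the + strand, dyf-3 (WBGene00001119) chromosome IV 3396581 to 3399231 on the − strand, and rimb-1 (WBGene00006513) chromosome III 1788333 to 1807147 on the + strand. The gene unc-10 (WBGene00006750) spans chromosome X 7272317 to 7280322 on the − strand, ckk-1 (WBGene00000518) chromosome III 5635479 to 5654564 on the + strand, and jip-1 (WBGene00002176) chromosome II 1326989 to 1350132 on the + strand. The gene ida-1 (WBGene00002048) spans chromosome III 5755539 to 5765816 on the + strand and egl-21 (WBGene00001189) chromosome IV 10478442 to 10481844 on the − strand. Their annotated exons covered from 1395 bases in dyf-3 to 6013 bases in trp-4. Annotated non-coding RNAs overlapped exons on the opposite strand in trp-4 and jip-1 only, and these averaged at most 1.69 normalized counts over the 24 libraries.

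Per kilobase of exon, the wild-type level was highest for dyf-3, at 320.0 normalized counts per kilobase, and for ckk-1, at 301. These lay at percentiles 95.2 and 94.9 of the kept features that are protein-coding genes. The level per kilobase was 104.4 for jip-1, 92.2 for trp-4, 77.3 for unc-10 and 51.1 for rimb-1. It was 14.6 for egl-21 and 7.52 for ida-1, so that these vesicle genes carried the lowest levels of the 8 genes before any mutation. In that order, the neighbours dyf-3 and ckk-1, and trp-4 and jip-1, did not differ beyond the spread of their wild-type libraries.

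Small RNAs against all 8 genes were lower in both meg-3/4 libraries than in both wild-type libraries, where 36.7% of all kept features were also lower; the members were chosen for this, so nothing is read from the count. The remaining level was higher for unc-10 than for trp-4, dyf-3, ckk-1 and jip-1. On average over the pair of mutant libraries, it was 0.642% ± 0.344 of the wild-type mean for trp-4, 1.28% ± 0.0571 for dyf-3, 1.79% ± 0.15 for ckk-1 and 2.36% ± 0.932 for jip-1 (SD, n = 2). It was 9.29% ± 1.17 for unc-10 and, from weakly covered genes, 17.2% ± 7.40 for egl-21. For rimb-1 the mutant values rested on 1 and 2 reads, and for ida-1 on 1 and 3 reads. Those of trp-4 rested on 2 and 5 reads, of dyf-3 on 5 and 6, of jip-1 on 5 and 10 and of egl-21 on 5 and 3. The lowest levels are therefore not put in an order.

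**Figure D1:**
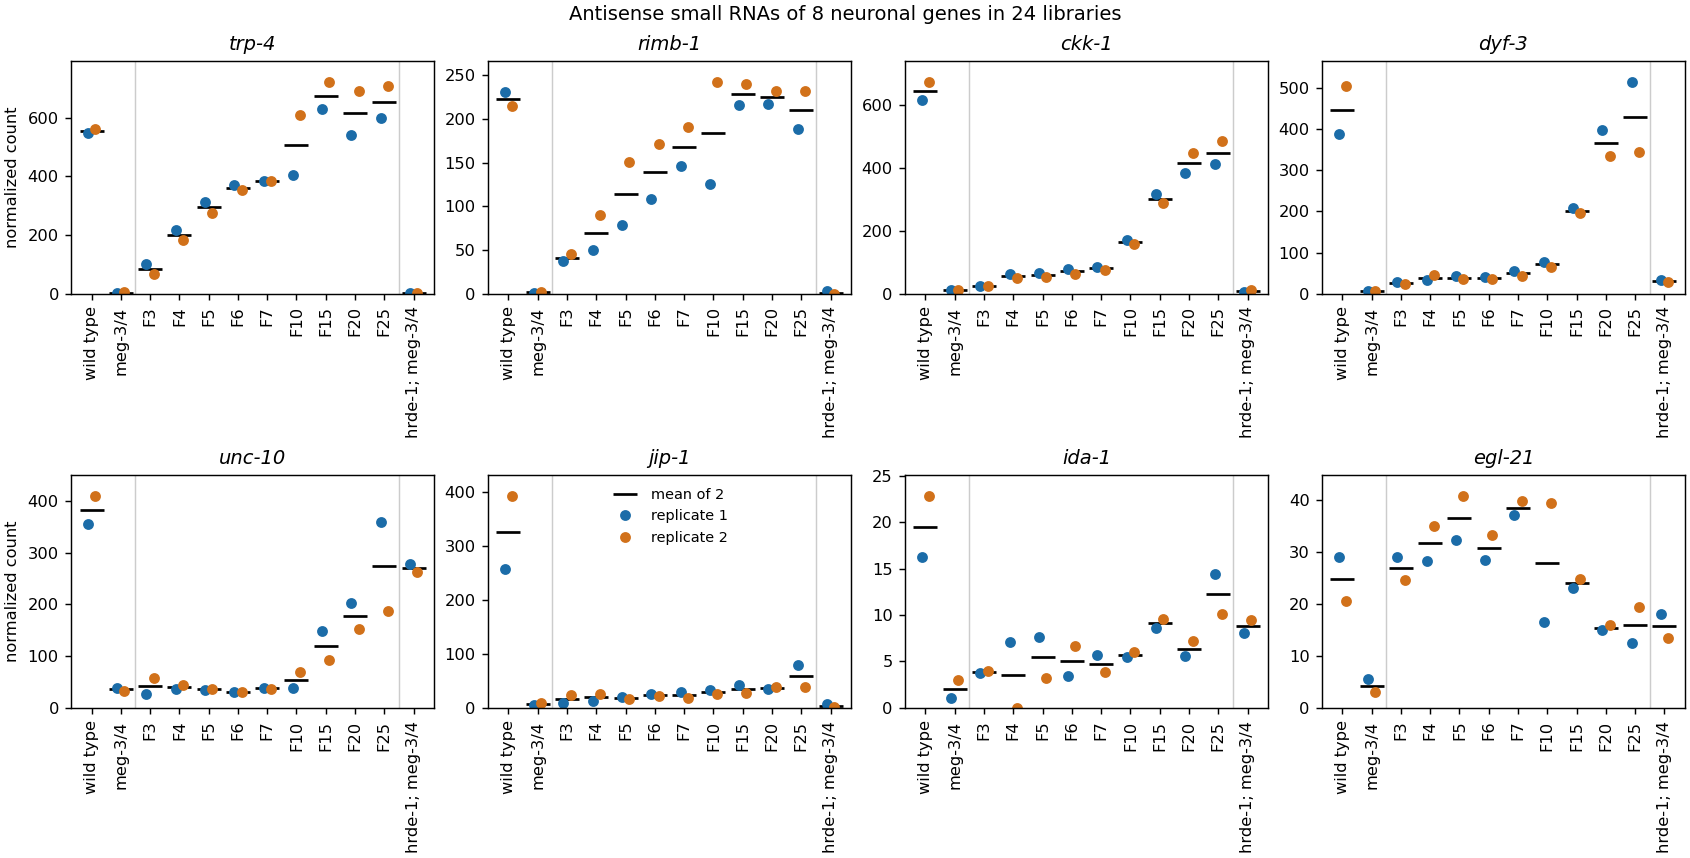
Normalized counts (vertical axis, linear, a separate scale for each gene) of antisense small RNAs against the 8 genes in each of the 24 libraries, by group; blue points are replicate 1, orange points replicate 2, and bars their mean. In every panel the meg-3/4 points lie under the wild-type points. The descendants climb early for trp-4 and rimb-1, from F3 on but mostly after F7 for ckk-1, and late for dyf-3 and unc-10. They climb little for jip-1 and start near wild type for egl-21.

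The gene trp-4 encodes a TRP channel of the NOMPC type that opens on mechanical force in sensory neurons. Its small RNAs were at 548 and 562 normalized counts in wild type and at 2.21 and 4.91 in the double mutant, from 2 and 5 reads. In the descendants they were at 100.2 and 66.3 at F3, 219 and 185 at F4, 314 and 277 at F5, 369.7 and 354 at F6, and 385 and 383 at F7. The ranges of neighbouring generations from F3 to F7 did not overlap, and each was higher than the one before, with all of these libraries under wild type. At F10 the values were 405 and 609.8, and then 629 and 722 at F15, 542 and 692 at F20, and 599 and 708 at F25. From F15 on only 1 library, F20 replicate 1, was under the lower wild-type library.

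The gene dyf-3 encodes a component of intraflagellar transport, the traffic along the axoneme that assembles sensory cilia. Its small RNAs were at 388 and 505 normalized counts in wild type and at 5.53 and 5.89 in the double mutant. Through F7 they stayed low in the descendants, at 27.8 and 22.9 at F3, 33 and 44.9 at F4, 43.7 and 35.1 at F5, 41.2 and 35.2 at F6, and 55.1 and 43.5 at F7. The values of F4, F5 and F6 overlapped, and every descendant library was above both meg-3/4 libraries. At F10 they were 76.5 and 65.6, at F15 207 and 196, at F20 399 and 336, and at F25 514 and 345. The step from F10 to F15 was larger than the gap between the replicates of either generation, and the F20 and F25 libraries spread across the lower wild-type value.

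The active zone proteins RIMB-1 and UNC-10 act at the same presynaptic site, where UNC-10, the RIM protein, helps to dock and prime synaptic vesicles and RIMB-1 binds RIM and calcium channels. For rimb-1 the wild-type libraries held 232 and 215 normalized counts and the meg-3/4 libraries 1.11 and 1.96. Its descendants held 37.7 and 45.0 at F3, 50.3 and 89.8 at F4, 78.2 and 151 at F5, 108.1 and 171 at F6, and 146 and 191 at F7. The means rose at each of these steps, but neighbouring generations from F4 on overlapped, and replicate 2 was above replicate 1 each time. The later values were 126 and 242 at F10, 216 and 241 at F15, 218 and 232 at F20, and 189 and 232 at F25, which overlapped the wild-type range at F10 and in each later group.

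For unc-10 the level was 356 and 409 normalized counts in wild type and 38.7 and 32.4 in the double mutant. In the descendants it was 26 and 56.9 at F3, 36.2 and 44.9 at F4, 34.5 and 36.7 at F5, 31.1 and 30.6 at F6, and 38.9 and 35.9 at F7. These early values spread around those of the double mutant, in no order of generation. At F10 they were 38.3 and 69.2, at F15 148 and 92.7, at F20 203 and 153, and at F25 360.4 and 187. One F25 library reached the wild-type range and the other did not, so that the recovery of unc-10 at F25 rests on replicate 1.

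CKK-1 is a calcium/calmodulin-dependent kinase kinase, which activates the kinase CMK-1, and JIP-1 is a scaffold of JNK signalling. The small RNAs against ckk-1 were at 614 and 671 normalized counts in wild type and at 12.2 and 10.8 in the double mutant. In the descendants they were at 26 and 25.3 at F3, 62.9 and 49.9 at F4, 65.9 and 54.2 at F5, 79.7 and 62.2 at F6, and 85.4 and 74.8 at F7. They went on to 169 and 158 at F10, 315 and 288 at F15, 384 and 448 at F20, and 411 and 485 at F25. The steps from F7 to F10, from F10 to F15 and from F15 to F20 were each upward without overlap, yet no descendant library reached the lower wild-type library.

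For jip-1 the wild-type libraries differed most among the 6 well covered genes, at 258 and 392 normalized counts, and meg-3/4 held 5.53 and 9.82. The descendants held 8.66 and 22.9 at F3, 13.4 and 24.9 at F4, 20.7 and 16.7 at F5, 25 and 21.9 at F6, and 29.4 and 18.3 at F7. They held 32.8 and 26.3 at F10, 43.2 and 28 at F15, 35.4 and 38.3 at F20, and 79.5 and 38 at F25. Every descendant library was far under wild type, and the highest, F25 replicate 1, stood well above its own partner.

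IDA-1 is a tyrosine phosphatase-like membrane protein of dense core vesicles, and EGL-21 is a carboxypeptidase E that trims neuropeptide precursors inside them. The small RNAs against ida-1 were at 16.2 and 22.8 normalized counts in wild type and at 1.11 and 2.95 in the double mutant. From F3 to F7 they ranged from 0 to 7.67, the 0 being in the shallow library F4 replicate 2, where 3 reads would be 15.0. They were at 5.47 and 5.97 at F10, 8.64 and 9.59 at F15, 5.59 and 7.18 at F20, and 14.5 and 10.1 at F25, so that only the last generation came near the wild-type range. All of these values rest on few reads.

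The gene egl-21 departed from the other 7 genes. Its small RNAs were at 28.9 and 20.4 normalized counts in wild type and at 5.53 and 2.95 in the double mutant, but already at 29.1 and 24.5 at F3. They were at 28.3 and 34.9 at F4, 32.2 and 40.6 at F5, 28.4 and 33.2 at F6, 37.0 and 39.7 at F7, and 16.4 and 39.4 at F10. All the libraries from F3 to F7 lay above the lower wild-type library, and 1 of the F10 libraries, the shallow one, lay under it. At F15 they were at 23.0 and 24.8, at F20 at 14.9 and 15.9, and at F25 at 12.4 and 19.4, with F20 and F25 under both wild-type libraries.

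**Figure D2:**
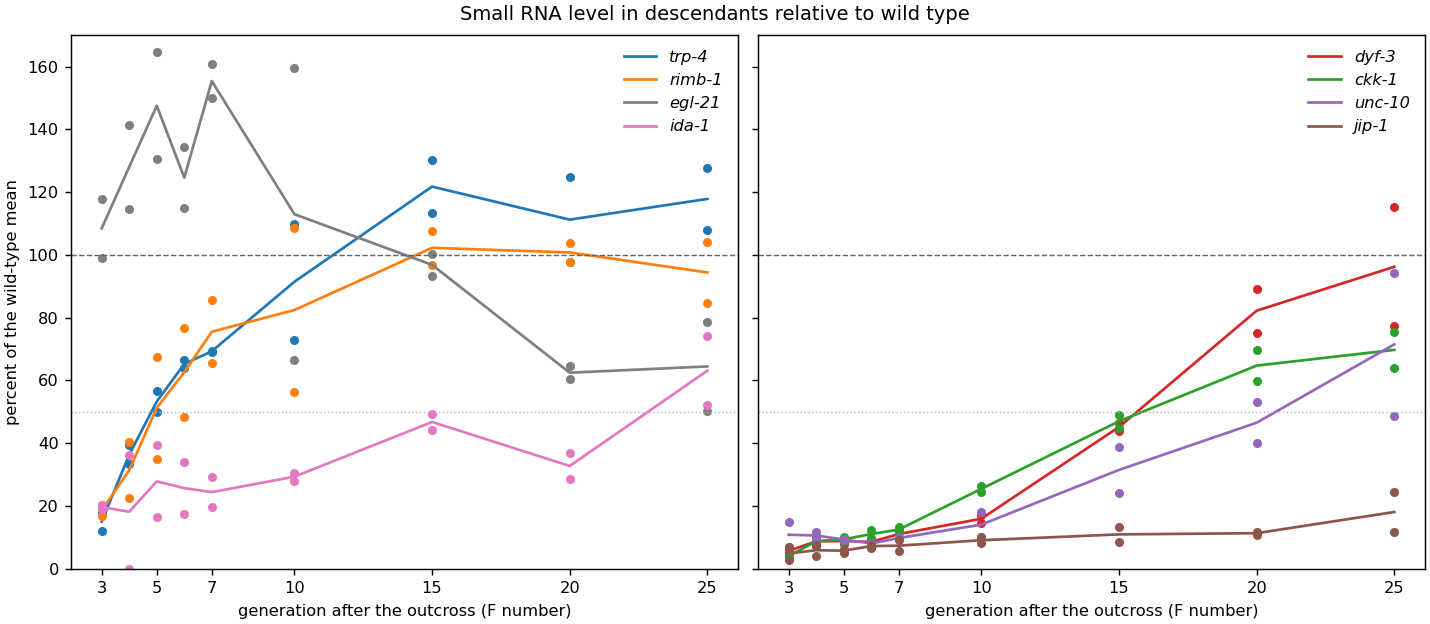
Small RNA level in the descendants as a percentage of the wild-type mean (vertical axis) against generation after the outcross (horizontal axis, F number); points are libraries and lines join the means of 2, with the dashed line at 100% and the dotted line at 50%. The genes trp-4 and rimb-1 passed 50% by F7, dyf-3 and ckk-1 by F20, and jip-1 stayed at 18.1% or less in the mean.

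The order of return was set by the generation from which both libraries stayed at or above 50% of the wild-type mean. This was F3 for egl-21, F6 for trp-4, F7 for rimb-1, F20 for dyf-3 and ckk-1, and F25 for ida-1, while unc-10 and jip-1 did not reach it by F25. At F10 the means stood at 91.4% ± 26.2 of wild type for trp-4 and 82.4% ± 36.9 for rimb-1 (SD, n = 2), against 25.4% ± 1.32 for ckk-1, 15.9% ± 1.73 for dyf-3, 14% ± 5.72 for unc-10 and 9.08% ± 1.42 for jip-1. At F25 they stood at 118% ± 13.9 for trp-4, 96.2% ± 26.8 for dyf-3, 94.4% ± 13.8 for rimb-1, 71.5% ± 32.1 for unc-10, 69.7% ± 8.16 for ckk-1, 64.5% ± 20.2 for egl-21, 63.1% ± 15.7 for ida-1 and 18.1% ± 9.02 for jip-1. Neighbours in the F25 order did not differ beyond their spread, apart from jip-1 under all the others. The generations belong to the chosen pattern and depend on the wild-type libraries used: the values of trp-4, dyf-3 and unc-10 would be F5, F15 and F25 against wild-type replicate 1 alone, that of rimb-1 F6 and that of ida-1 not reached against replicate 2 alone, and that of egl-21 not reached against replicate 1 alone.

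As counts, 7 of the 8 genes were under both wild-type libraries in both libraries of F3, F4, F5, F6 and F7, all but egl-21, beside 33.9%, 31.8%, 35.4%, 34.1% and 34.3% of all kept features in those generations. The number was 5 at F10, F15 and F20, beside 32.5%, 32.4% and 30.7%, and 4 at F25, beside 26.9%. The wild-type libraries are shared by all these comparisons, and the counts follow from the way the genes were chosen.

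Within the descendants the change can be described without any wild-type library, as the slope of log2(normalized count + 5) on generation number over 18 libraries. The genes had been chosen for when they came back, so these slopes and the steps between generations are descriptions as well, with no test. The steepest slope was that of the cilium gene dyf-3, 0.18 per generation (SE 0.0091), followed by ckk-1 at 0.17 (SE 0.013) and unc-10 at 0.13 (SE 0.012). The earlier returning genes had smaller slopes over the same span, 0.094 for trp-4 (SE 0.018) and 0.078 for rimb-1 (SE 0.017).

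The scaffold gene jip-1 had a slope of 0.063 (SE 0.011), although its level stayed low, and ida-1 one of 0.039 (SE 0.011). The slope of egl-21 was −0.044 (SE 0.0096), the only negative one of the 8. In limma, with Benjamini-Hochberg adjustment over all kept features, 7 of the 8 genes were past the threshold upward and 1 downward, beside 13.8% and 7.51% of all kept features. Nothing is read from these counts or from the later ones on the same libraries, since the choice of the genes used their values.

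The generations were then divided into early (F3, F4, F5), middle (F6, F7, F10) and late (F15, F20, F25), with 6 libraries each. These windows are unevenly spaced in generations, so the steps between them are not rates per generation. From early to middle, the level of trp-4 went from 193 ± 97.0 to 418 ± 95.5 normalized counts (SD, n = 6; log2 difference 1.25). That of rimb-1 went from 75.3 ± 42.1 to 164 ± 48.6 (1.17), and that of ckk-1 from 47.4 ± 17.8 to 105 ± 46.2 (1.05). These SDs hold the differences between the 3 generations of a window as well as those between replicates.

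The cilium gene dyf-3 moved less in this interval, from 34.6 ± 8.65 to 52.9 ± 15.9 normalized counts (log2 difference 0.53). For unc-10 the levels were 39.2 ± 10.6 and 40.7 ± 14.4 (0.032), for egl-21 31.6 ± 5.68 and 32.3 ± 8.90 (0.0006), and for jip-1 17.9 ± 6.16 and 25.6 ± 5.17 (0.45). For these genes the windows differed by less than their combined spread. The levels of ida-1 were 4.26 ± 2.80 and 5.16 ± 1.28 (0.19). Upward, 4 of the 8 genes were past the limma threshold, beside 2.73% of all kept features, and downward none, beside 1.21%.

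From middle to late, the level of dyf-3 went from 52.9 ± 15.9 to 333 ± 119.9 normalized counts (SD, n = 6; log2 difference 2.51). That of unc-10 went from 40.7 ± 14.4 to 191 ± 91.4 (2.03), and that of ckk-1 from 105 ± 46.2 to 389 ± 75.9 (1.92). For each of these 3 genes all 6 late libraries were above all 6 middle ones. On the log2 scale the channel gene trp-4 moved less than in the earlier step, from 418 ± 95.5 to 649 ± 70.7 (0.65). So did rimb-1, from 164 ± 48.6 to 221 ± 18.4 (0.46).

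The neuropeptide processing gene egl-21 went down, from 32.3 ± 8.90 to 18.4 ± 4.85 normalized counts (log2 difference −0.66). The levels of jip-1 were 25.6 ± 5.17 and 43.7 ± 18.2 (0.62) and those of ida-1 5.16 ± 1.28 and 9.26 ± 3.04 (0.47), both with F25 replicate 1 as the highest library. Upward, 4 of the 8 genes were past the limma threshold, beside 10.9% of all kept features, and downward 1, beside 4.08%.

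**Figure D3:**
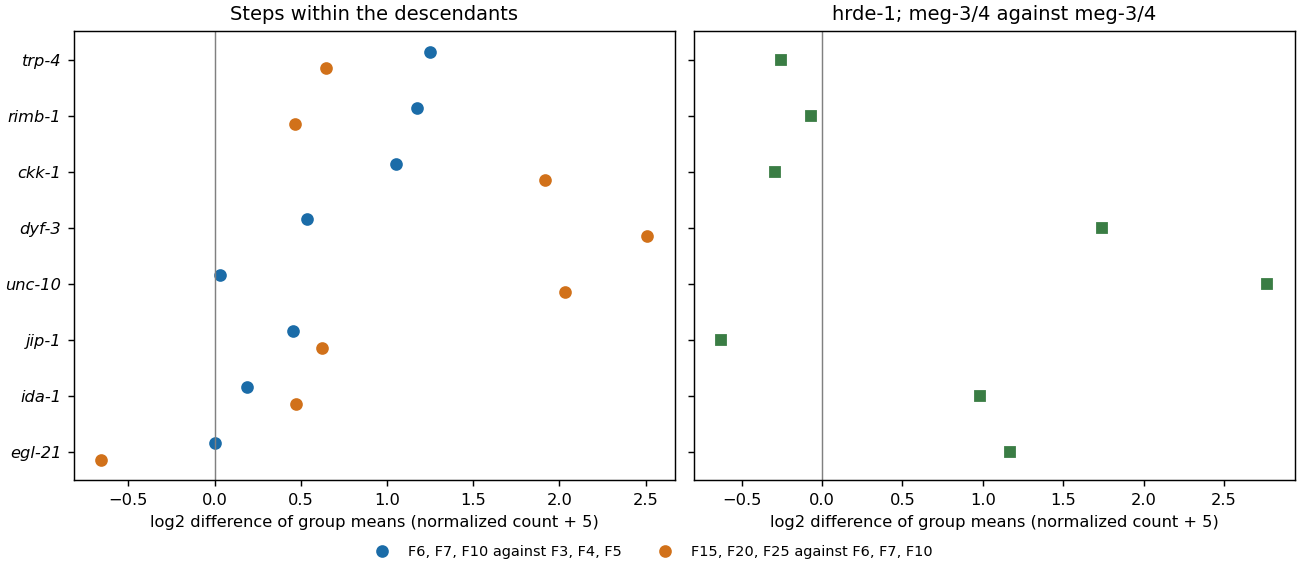
Left, log2 differences of group means (horizontal axis, log2 of normalized count + 5) from early to middle generations (blue) and from middle to late generations (orange) for each gene; right, the same for the triple minus the double mutant (green). The early step is the larger one for trp-4 and rimb-1 and the late step for ckk-1, dyf-3 and unc-10. The late step spans more generations than the early one, so their sizes are not rates. No test is shown, because the genes were chosen on these libraries.

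The late step minus the early step, a contrast added after the data had been seen, was 2.00 for unc-10, 1.98 for dyf-3 and 0.86 for ckk-1 on the log2 scale. It was −0.71 for rimb-1, −0.66 for egl-21 and −0.60 for trp-4, and 0.29 for ida-1 and 0.17 for jip-1. The active zone genes unc-10 and rimb-1 thus had values of opposite sign. The late step spans more generations than the early one, so these values do not compare rates per generation. Upward, 3 genes were past the limma threshold, beside 2.29% of all kept features, and downward none, beside 0.677%.

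The comparison of the triple with the double mutant asks what further loss of HRDE-1 goes with in animals that already lack MEG-3 and MEG-4. The genes were chosen for low values in the meg-3/4 libraries, which are one side of it, so it is described without a test. Each mutant genotype was 1 strain, so loss of HRDE-1 cannot be told apart from other differences between the strains. Against unc-10 the libraries of hrde-1; meg-3/4 held 278 and 263 normalized counts, far above the 38.7 and 32.4 of meg-3/4 (log2 difference 2.77) and under both wild-type libraries. Against dyf-3 they held 32.4 and 29.2, above 5.53 and 5.89 (1.74). As shares of the wild-type mean the triple mutant was at 70.8% ± 2.76 for unc-10 and 6.90% ± 0.515 for dyf-3 (SD, n = 2).

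Both vesicle genes were also above the double mutant without overlap. For egl-21 the triple mutant held 18 and 13.4 normalized counts, against 5.53 and 2.95 (log2 difference 1.17). For ida-1 it held 8.10 and 9.46, against 1.11 and 2.95 (0.98), on few reads.

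For the other 4 genes the libraries of both mutants overlapped. The triple mutant held 1.80 and 2.37 normalized counts against trp-4 (log2 difference −0.26), 2.70 and 0 against rimb-1 (−0.072), 6.30 and 11 against ckk-1 (−0.29) and 6.30 and 0.788 against jip-1 (−0.63). For the rimb-1 library at 0, 3 reads would be 2.37 normalized counts, and its double mutant libraries rest on 1 and 2 reads. Upward, 3 of the 8 genes were past the limma threshold, beside 10.6% of all kept features, and downward none, beside 8.63%.

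**Figure D4:**
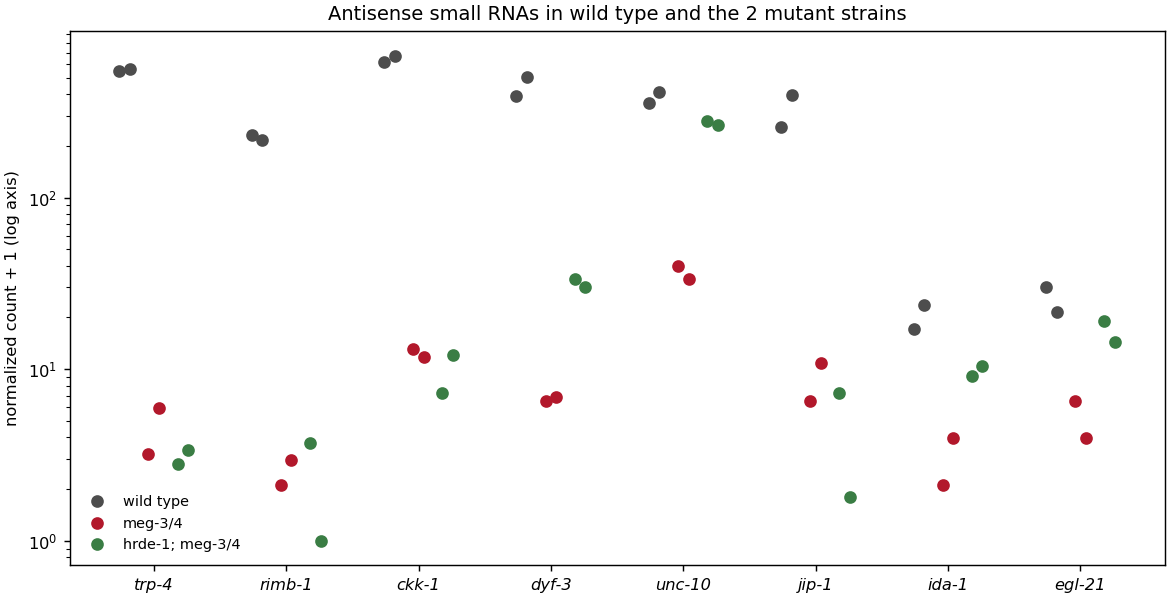
Normalized counts + 1 (vertical axis, log scale) against the 8 genes in wild type (grey), meg-3/4 (red) and hrde-1; meg-3/4 (green), 1 point per library. The green points for unc-10 and dyf-3 lie above the red ones, while those for trp-4, rimb-1, ckk-1 and jip-1 overlap them.

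The active zone gene rimb-1 also differed between the replicate numbers of the descendants. Replicate 2 was above replicate 1 in 9 of 9 generations (log2 difference 0.49, SE 0.0945, adjusted p = 0.0129 by limma with generation as a factor), where 1.23% of all kept features were called higher and 0.846% lower. The difference was no longer called without F6 replicate 2 (adjusted p = 0.050). The other 7 genes were not called. Replicate 2 was the higher library in 8 of 9 generations for egl-21, 5 for ida-1, 4 for trp-4 and unc-10, 3 for jip-1, 2 for ckk-1 and 1 for dyf-3. The labels do not say what the numbers stand for in the descendants.

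The 8 genes were set beside 6 lists of genes of the same pathways, 176 genes of which 70 were kept. In meg-3/4 against wild type, 21 of the 70 were lower and 1 was higher, beside 17.6% and 8.28% of all kept features; the median log2 difference was 0.035 over the 70 and −0.012 over all kept features. In the trend over the descendants 10 rose, or 14.3% of the 70, and 8 fell, or 11.4%, beside 13.8% and 7.51% of all kept features. Of the 21 that were lower in the double mutant, 8 rose and 1 fell in the trend. Those 8 include arl-13, which averaged only 3.03 normalized counts in the descendants. The matching share over all kept features that were lower in the double mutant was not computed, so nothing about neuronal genes is read from this. For comparison, of 13 germline genes 1 was lower in the double mutant (7.69%) and 3 fell in the trend (23.1%), the others not being called. Of 5 kept muscle genes 1 was lower in the double mutant (20%) and 2 rose in the trend (40%). Of 3 kept intestine genes 1 was higher in the double mutant (33.3%), and none was called in the trend. The 1 kept gene of epidermis and cuticle was not called in either.

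Among 14 kept genes of the presynaptic active zone and vesicle release, 3 were lower in meg-3/4 (21.4%, beside 17.6% of all kept features), and 1 rose and 3 fell in the trend (7.14% and 21.4%, beside 13.8% and 7.51%). Scaled to equal library totals, 5 were lower. Among 18 kept genes of sensory cilia and intraflagellar transport, 8 were lower (44.4%, beside 17.6%), and 3 rose and 1 fell in the trend (16.7% and 5.56%, beside 13.8% and 7.51%), a total of 4 that was 2 without F5 replicate 2 or F20 replicate 2 and 1 without F25 replicate 1. The ciliary transition zone gene mks-1 went from 172 ± 28.9 normalized counts in wild type to 4.11 ± 1.13 in the double mutant (SD, n = 2; adjusted p = 1.38e-10 by limma). Its F3 level was 17.1 ± 1.47, its F10 level 120.0 ± 22.7 and its F25 level 165 ± 72.7.

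Of 9 kept TRP and mechanosensory channel genes, 1 was higher and the others were not called in meg-3/4, and 3 fell and the others were not called in the trend (11.1% higher and 33.3% falling, beside 8.28% and 7.51% of all kept features). The TRPM channel gene gon-2 was the one that was higher in meg-3/4, at 181 ± 17.9 against 64.8 ± 2.46 normalized counts (SD, n = 2; adjusted p = 7.91e-06 by limma), and fell through 159.7 ± 5.35 at F3 to 60.4 ± 6.59 at F25. The mechanosensory channel gene pezo-1 fell by 0.011 per generation on the log2 scale (adjusted p = 0.00524), from 670.2 ± 23.2 at F3 to 569.5 ± 2.19 at F25.

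Of 16 kept genes of calmodulin kinase and JNK signalling, 3 were lower in meg-3/4 (18.8%, beside 17.6% of all kept features), and 2 rose and 1 fell in the trend (12.5% and 6.25%, beside 13.8% and 7.51%). Both that rose are kinases of a pathway of axon regeneration. The kinase gene dlk-1 went from 778 ± 102 normalized counts in wild type to 28.9 ± 6.11 in the double mutant (SD, n = 2; adjusted p = 2.25e-14 by limma) and from 93.0 ± 9.11 at F3 to 660.0 ± 19.2 at F25. Its partner pmk-3, a p38 kinase gene, went from 1279.7 ± 143 to 173 ± 13.4 (adjusted p = 9.35e-13) and from 124 ± 5.24 at F3 to 831 ± 57.5 at F25. The JNK scaffold gene unc-16, which like jip-1 encodes a JNK interacting protein, held 159 ± 7.15 in wild type and 199.96 ± 20.0 in the double mutant, a difference that was not called (adjusted p = 0.117). It fell in the trend by 0.017 per generation (adjusted p = 0.0206).

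Of 7 kept genes of dense core vesicles and neuropeptide processing, 4 were lower in meg-3/4 (57.1%, beside 17.6% of all kept features) and 2 rose in the trend (28.6%, beside 13.8%). The count of 4 was 2 without wild-type replicate 1, wild-type replicate 2 or meg-3/4 replicate 2. The small GTPase gene unc-108, whose product acts in dense core vesicle maturation, rose by 0.029 per generation (adjusted p = 0.0011 by limma), from 103 ± 7.82 normalized counts at F3 to 144 ± 0.101 at F25 (SD, n = 2). It was not among the genes lower in meg-3/4, at 131 ± 10.3 there and 155 ± 14.1 in wild type (adjusted p = 0.354 by limma). Of 6 kept genes of neurotransmitter synthesis, transport and receptors, 3 were lower in meg-3/4 (50%, beside 17.6% of all kept features) and 2 rose in the trend (33.3%, beside 13.8%). The serotonin transporter gene mod-5, named after its values were seen, went from 173 ± 3.54 normalized counts in wild type to 5.71 ± 0.255 in the double mutant (adjusted p = 7.78e-08), and its mean rose from 7.01 at F3 to 81.7 at F25.

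**Figure D5:**
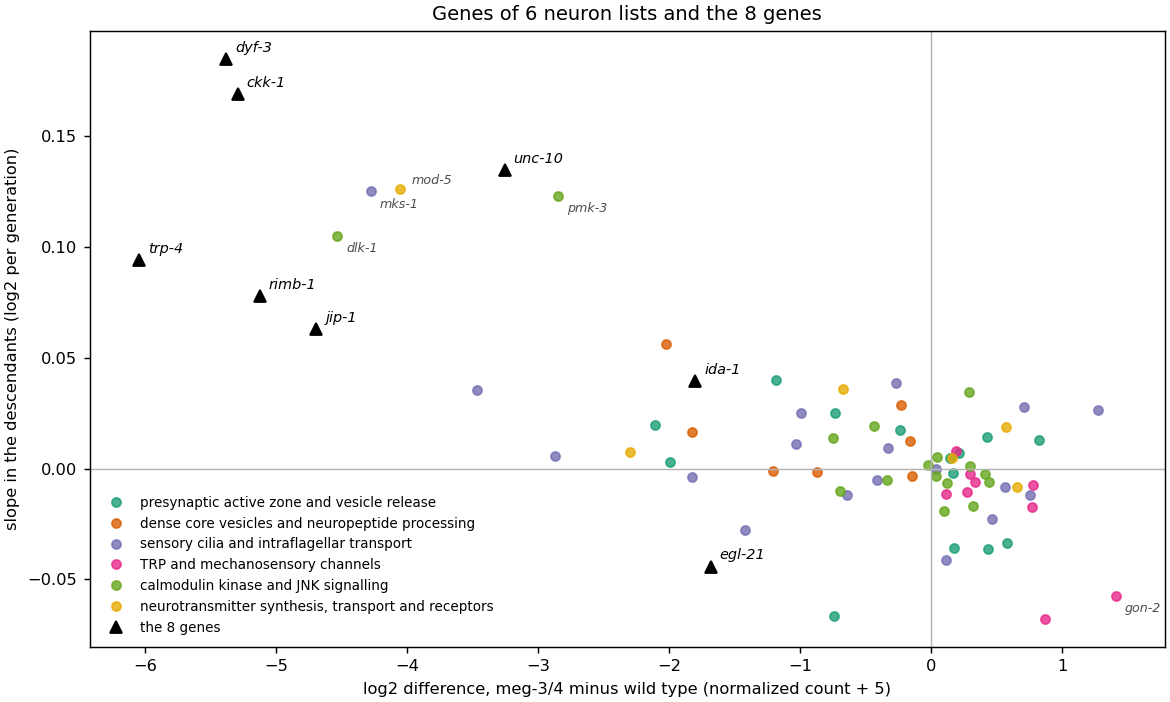
Log2 difference between meg-3/4 and wild type (horizontal axis) and slope over the descendants in log2 per generation (vertical axis) for 70 kept genes of 6 neuron lists (coloured circles) and the 8 genes (black triangles); both axes use log2(normalized count + 5). Most circles lie near 0 on both axes, and the 4 labelled circles at the upper left, dlk-1, mks-1, mod-5 and pmk-3, lie among the black triangles.

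Over the 24 libraries, the 2 genes of the 8 whose levels ran most alike were trp-4 and rimb-1, with a Pearson r of 0.99 of log2(normalized count + 5), followed by dyf-3 and ckk-1 with 0.93. The active zone genes rimb-1 and unc-10 had an r of 0.12, and the least alike were unc-10 and egl-21 with −0.24. These are descriptions over libraries that share groups, depth and the choice of the genes. Among the other kept features with a mean of at least 50, the most alike was the F-box gene fbxa-184 for trp-4 (r = 0.99), C18D11.1 for dyf-3 (0.96), acs-5 for rimb-1 (0.98) and Y57G7A.2 for unc-10 (0.98).

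For the other 4 genes these were Y69A2AR.31 for ckk-1 (0.98), ser-5 for jip-1 (0.90), skr-21 for ida-1 (0.90) and elk-2 for egl-21 (0.87). The feature most like unc-10, Y57G7A.2, averaged 155 normalized counts in wild type, 21.6 in the double mutant, 24.1 at F10, 115.2 at F25 and 154 in the triple mutant. It was thus low through F10 and high in hrde-1; meg-3/4, as unc-10 was. The feature most like trp-4, fbxa-184, averaged 163 in wild type, 9.27 in the double mutant, 206 at F10 and 3.38 in the triple mutant.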

How the data were processed

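Small RNAs of about 15 to 30 nucleotides were sequenced in 24 libraries after phosphatase and kinase treatment, per the labels' protocols. The submitters' processing notes name cutadapt, Bowtie, featureCounts and DESeq2; the genome build, annotation, versions and strand rule were not given in the sources used here. The deposited signal is a normalized count, a whole number of reads that the authors divided by 1 factor per library: 100.0% of 386038 values above 0 were whole within 0.01. Of 46726 identifiers, 46364 matched Ensembl release 115 (WBcel235). Where a non-coding RNA lies opposite a microRNA gene (28 places), the non-coding feature was higher in 26, so reads are antisense to the annotated gene.

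The 8869 features that reached 10 normalized counts in 2 libraries or more were tested two-sided with limma 3.58.1 in R 4.3.3 (intensity trend, all 12 groups in one fit) on log2(normalized count + 5), which understates changes of low features. Benjamini-Hochberg adjustment ran over all 8869, at 0.05. The trend used the 18 descendant libraries. On recovered reads, edgeR 4.0.16 called 1441 rising and 755 falling features in the trend, against 1224 and 666 in limma. DESeq2 1.42.0, other scalings, filters and left-out libraries were tried too.

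The genes, lists and tests were chosen with earlier results of these data known. Tests of the 8 genes within the descendants by generation, and of the triple against the double mutant, had been planned; their values are described without p-values, because the same libraries bear on the choice of the genes. Named beside the 8 genes, by rule, are up to 3 genes of each list with the steepest called slope and a descendant mean of at least 50, the 1 feature most alike to each gene, meg-3, meg-4 and hrde-1. A single read is the finest step of a level, and the value of 3 reads is the 95% limit for a count of 0; both cover counting error only.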

Additional observations from a re-analysis of the deposited data

How the results depend on the processing

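Of 1038 single-gene fits of the 8 genes under an alternative, 986 kept their direction and side of the threshold, 8 lost and 8 gained a call, and 36 changed sign, all of them for differences that were not called. The genes were chosen on these libraries, so these numbers describe the dependence on processing only, and a kept call is no support for a result. Outside left-out libraries, the sign changes were unc-10 from early to middle at equal library totals (−0.032), ida-1 without both shallow libraries (−0.015) and egl-21 with an added count of 1 (−0.0051) or equal totals (−0.059) in the same step, and, for replicate 2 against 1, trp-4 (−0.0037) and unc-10 (−0.15) without the shallow libraries and unc-10 with edgeR (−0.24) and DESeq2 (−0.068). With 1 library left out, these ranges crossed 0: early to middle, unc-10 −0.13 to 0.20, ida-1 −0.027 to 0.40 and egl-21 −0.17 to 0.18; replicates, trp-4 −0.033 to 0.11, unc-10 −0.12 to 0.12 and jip-1 −0.24 to 0.0068; triple mutant, rimb-1 −0.38 to 0.24; step difference, jip-1 −0.019 to 0.36. Between replicates, dyf-3 was called lower in replicate 2 with edgeR (adjusted p = 0.0307), and rimb-1 lost its call with no filter (0.227).

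Counts over all features and counts of the 8 genes stayed within 1.5 times of the reported value in 263 of 291 cases. Both kinds of count enter these numbers, so they do not give the share for counts over all features alone. The counts of the 8 genes depend on how the genes were chosen. Features differing between replicates numbered 184, against 19 with no filter, 362 with edgeR, 284 with DESeq2 and 303 without the shallow libraries, with 1 of the 8 genes among them, or 0 with no filter and 2 with edgeR. The step difference called 263, and 110 with no filter. With 1 library left out, counts ranged from 1276 to 2221 in the trend, 239 to 676 from early to middle (676 without F10 replicate 2, 601 without F4 replicate 1), 875 to 1849 from middle to late (875 without F25 replicate 1), 1170 to 1230 in the triple mutant, 79 to 277 between replicates, 87 to 856 for the step difference and 1537 to 1752 for meg-3/4; members called ranged from 0 to 1 between replicates, 4 to 6 from middle to late, and 2 to 4 for the step difference. The cause was not tested. Equal totals moved the median of all features from −0.012 to −0.33 in meg-3/4 against wild type, where 294 were higher and 2659 lower (734 and 1564 as reported). They moved it from −0.013 to 0.21 in the triple mutant, where 1408 were higher and 439 lower (938 and 765). Between replicates 148 were higher and 38 lower (109 and 75).

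Other scalings moved the generation of lasting return. With TMM it moved to F5 for trp-4 and to F25 for unc-10. With equal totals it moved to F15 for rimb-1 and to F25 for ckk-1, and ida-1 and egl-21 did not reach it. Of 352 percentages of the wild-type level under another scaling or with 1 wild-type library, 84 moved by more than their SD. With no filter, lists called 2 dense core vesicle genes lower, and 1 cilium and 1 neurotransmitter gene in the trend; on log2 of generation the cilium list had 2.

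The difference between replicate 1 and replicate 2 correlated above 0.1 in 31 of 36 pairs of descendant groups. The median correlation was 0.31, with a range from −0.054 to 0.67 over 4469 features. Differences between the replicate numbers thus recurred across most generations, and the reported slopes and steps did not take them into account. With the replicate number as a block, the trend called 1998 features, early to middle 422, middle to late 1449, the triple mutant 1811, the step difference 316 and meg-3/4 2437; from middle to late rimb-1 then also passed the threshold. Values of ida-1, and of all mutant levels near 0, rest on too few reads to order them.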

Other observations

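Some genes of the cilium and vesicle lists were already well above their double-mutant level at F3, and all were picked out after their values were seen. The rule for lasting return was not applied to them. The kinesin-II motor gene klp-20, which drives intraflagellar transport, had a wild-type level of 174.6 ± 28.1 normalized counts and a double-mutant level of 45.5 ± 6.47 (SD, n = 2; log2 difference −1.83, adjusted p = 1.96e-08 by limma), and its mean was 159.9 at F3. The tomosyn gene tom-1, an inhibitor of vesicle release, was at 392 ± 59.2 and 94.5 ± 8.69 (−1.99, adjusted p = 6.82e-09) and averaged 416 at F3. The transition zone gene mksr-2 was at 381 ± 7.09 and 49.8 ± 20.4 (−2.87, adjusted p = 3.46e-08) and averaged 263 at F3.

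In the triple mutant klp-20 averaged 1201 normalized counts, above its wild-type mean, with a log2 difference from meg-3/4 of 4.58 (adjusted p = 2.5e-14 by limma). It was 1 of 5 cilium genes that were higher in hrde-1; meg-3/4 than in meg-3/4, of 18 kept, while 1 was lower (27.8% and 5.56%, beside 10.6% and 8.63% of all kept features). For arl-13 the wild-type libraries themselves differed widely, at a mean of 86.4 ± 67.7 (SD, n = 2), so its loss was not described.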
